A study of Mus musculus with 2 samples.

Results

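The vascular endothelial growth factor (VEGF) ligands and receptors were followed through 2 droplet 3′ single-cell libraries of mouse liver endothelial cells. The 9 genes were taken by symbol from the 32285 genes of the deposited tables: the receptors *Kdr*, *Flt1* and *Flt4*, the co-receptors *Nrp1* and *Nrp2*, and the ligands *Vegfa*, *Vegfb*, *Vegfc* and *Pgf*. All 9 were found. The control library was labelled WT, and the paper's methods describe controls as littermates with the floxed *Maf* allele (fl/fl or fl/wt) but no Clec4g-iCre transgene. The other library, labelled KO and called Maf LSEC-KO or knockout here, came from Clec4g-iCre tg/wt, Maf fl/fl mice, in which Cre is driven by a transgene of *Clec4g*, a lectin gene of liver sinusoidal endothelial cells (LSECs). The strain names are C57BL/6N for the transgene and B6.129P2 for the floxed allele, no agent is named, and the study used mice of both sexes, 3 or 6 months old, without stating which of these went into the libraries. Each library held the pooled livers of 3 mice, purified with anti-CD146 beads.

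VEGF ligands are secreted dimers that bind receptor tyrosine kinases on endothelial cells. Vegfr2, the product of *Kdr*, carries most of the growth and permeability signal of Vegfa. Vegfr1 (*Flt1*) binds Vegfa, Vegfb and placental growth factor, and in part acts as a decoy. Vegfr3 (*Flt4*) binds Vegfc and is known best from lymphatic vessels, although LSECs and other fenestrated endothelia carry it too. The neuropilins hold ligand next to these receptors, *Nrp1* mainly for Vegfa and *Nrp2* mainly for Vegfc. In the liver, Vegfa from neighbouring cells is known to keep LSECs fenestrated.

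The libraries held 4104 control and 3247 knockout LSECs, defined as endothelial-like cells without a UMI of *Vwf*. Their median depth was 8399 and 13870 UMIs (range 1512 to 53852 and 1506 to 103948). Cells with a *Vwf* UMI made up 3.77% of the control and 26.7% of the Maf LSEC-KO endothelial-like cells. *Maf* itself was at 3464 CPM in control LSECs and 125 CPM in the knockout. CPM were scaled to the UMIs that fall on neither mitochondrial genes nor ribosomal protein genes. The 8 LSEC marker genes, none of them a VEGF gene, summed to 16771 CPM in control and 5096 CPM in knockout LSECs. Of the kept barcode sequences, 7 occurred in both libraries. Hemoglobin and other erythroid markers (7 genes) summed to 1251 CPM in control and 14.6 CPM in knockout LSECs, and 8 cycling markers to 163 and 998 CPM. Without cycling LSECs the log2 ratios of *Flt4*, *Nrp2* and *Vegfc* were -1.06, -0.95 and 2.33, and without the merged clusters 5 (led by hemoglobin genes) and 6 (led by hemoglobin and hepatocyte genes), an alternative chosen after seeing the data, -1.20, -1.10 and 2.64. Cluster 5 also had portal vein markers among its leading genes and held 177 of the 450 *Vegfc* UMIs of control LSECs, which that alternative leaves out. With 1 library per condition no test between conditions is possible. Every interval below is at the 95% level and covers counting error only, and mice, pools and library preparation cannot be told apart from genotype.

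Among the 6 members of at least 50 CPM in LSECs of either library, the 3 that differed by at least 2-fold were *Flt4* and *Nrp2*, both lower in the knockout, and *Vegfc*, the ligand that these receptors share, which was higher. Of all 4511 genes of that level, 8.16% were at least 2-fold higher and 5.54% at least 2-fold lower, and *Vegfc* reached it in the knockout alone. For *Flt4*, *Nrp2* and *Vegfc* the 250 bases before the RefSeq start sites are shown (build GRCm38.p6, 5′ to 3′ on the plus strand, CpG dinucleotides in capitals).

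*Flt4*, chr11:49609429-49609678: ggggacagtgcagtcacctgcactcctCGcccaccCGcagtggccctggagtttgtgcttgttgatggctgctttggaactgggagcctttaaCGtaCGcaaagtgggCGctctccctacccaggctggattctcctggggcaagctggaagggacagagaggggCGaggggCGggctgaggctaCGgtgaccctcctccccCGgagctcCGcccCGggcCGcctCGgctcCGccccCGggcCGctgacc

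*Nrp2*, chr1:62703067-62703316: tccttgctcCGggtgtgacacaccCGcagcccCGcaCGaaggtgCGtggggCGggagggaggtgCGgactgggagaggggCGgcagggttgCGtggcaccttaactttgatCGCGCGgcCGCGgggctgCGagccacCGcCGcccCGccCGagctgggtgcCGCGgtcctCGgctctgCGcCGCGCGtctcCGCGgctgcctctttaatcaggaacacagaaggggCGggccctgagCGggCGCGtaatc

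*Vegfc*, chr8:54077282-54077531: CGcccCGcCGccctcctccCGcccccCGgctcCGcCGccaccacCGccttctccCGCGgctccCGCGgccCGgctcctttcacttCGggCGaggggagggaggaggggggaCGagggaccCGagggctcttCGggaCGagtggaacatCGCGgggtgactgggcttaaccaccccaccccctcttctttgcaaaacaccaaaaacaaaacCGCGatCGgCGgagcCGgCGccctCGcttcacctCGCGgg

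These windows held 16, 32 and 30 CpG dinucleotides, against a median of 6 in the 32851 windows of the RefSeq table. The GC content of the 11 windows of the 9 members ran from 59.2% to 76.4%, above the median of 52.4% for all windows. On both strands, 6 motifs were searched in the same 250 bases. The palindromic Maf recognition elements, TGCTGA and TCAGCA with any 1 base (in 0.00609% of all windows) or any 2 bases (0.00609%) between them, their arm TGCTGA alone (16.1%) and the AP-1 motif TGANTCA (6.75%), which lies within the element with 1 base, had no match in any member window. The GATA motif AGATAA (9.99% of all windows) matched in 1 of 2 *Vegfa* windows, the one before the 5′ end of the gene. The hypoxia core ACGTG (16.6%) had 0 matches there and matched in the other window (chr17:46025164-46025413), which lies inside the *Vegfa* gene. No match says only that these letters are absent from these bases.

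Among the receptor tyrosine kinases, *Kdr* (ENSMUSG00000062960, chr5:75932827-75978458, minus strand) was at 3413 CPM in control and 2651 CPM in knockout LSECs. The log2 ratio, knockout over control here and below, was -0.36 (-0.38 to -0.35). *Flt1* (ENSMUSG00000029648, chr5:147561604-147726011, minus strand) was at 1137 and 786 CPM, with a log2 ratio of -0.53 (-0.55 to -0.51). These 3′ counts do not separate the membrane form of Flt1 from its soluble form. *Flt4* (ENSMUSG00000020357, chr11:49609263-49652739, plus strand) was at 744 and 343 CPM, with a log2 ratio of -1.12 (-1.15 to -1.09). All 3 receptor kinases were therefore lower in the knockout library, with *Flt4* lowest relative to control.

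The co-receptors followed the same order. *Nrp1* (ENSMUSG00000025810, chr8:128358604-128503363, plus strand), the Vegfa co-receptor, was at 2344 CPM in control and 1929 CPM in knockout LSECs, with a log2 ratio of -0.28 (-0.30 to -0.27). *Nrp2* (ENSMUSG00000025969, chr1:62703285-62818695, plus strand), the Vegfc co-receptor, was at 545 CPM (537 to 553) and 265 CPM (260.4 to 270.5), with a log2 ratio of -1.04. That ratio fell short of 2-fold in 3 of 15 alternatives, at -0.90 when CPM were averaged over cells. The Vegfc pair *Flt4* and *Nrp2* thus differed by more than the Vegfa pair *Kdr* and *Nrp1*, and the intervals of the pairs did not overlap. Counts of 3′ UMIs do not scale with transcript length, so shares within the family can be given. Of the UMIs of the 5 receptor genes together, *Flt4* held 9.10% in control and 5.74% in knockout LSECs, and *Nrp2* 6.66% and 4.44%. *Kdr* and *Nrp1* took up larger shares of the sum in Maf LSEC-KO (44.4% and 32.3%) than in control (41.7% and 28.7%).

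The ligands showed another picture. *Vegfc* (ENSMUSG00000031520, chr8:54077606-54187096, plus strand) was at 13.7 CPM in control and 60.4 CPM in knockout LSECs, with a log2 ratio of 2.14. The interval of its knockout level, 58.0 to 62.8 CPM, lies far above the control level. *Vegfa* (ENSMUSG00000023951, chr17:46016993-46032369, minus strand) was at 12.1 and 16.5 CPM, with a log2 ratio of 0.45 (0.27 to 0.64). *Vegfb* (ENSMUSG00000024962, chr19:6982473-6987651, minus strand), a ligand of Vegfr1, was at 45.8 and 45.6 CPM, with a log2 ratio of -0.01 (-0.11 to 0.09), an interval that includes 0. *Pgf* (ENSMUSG00000004791, chr12:85166635-85177790, minus strand), the other ligand of Vegfr1 alone, had 0 UMIs in control LSECs, which at a floor of 3 counts stands for up to 0.0912 CPM, and 16 UMIs in knockout LSECs (0.399 CPM). The counting interval of its ratio starts at 1.66 on the log2 scale, past 2-fold, but its level is too low for the counts of members given below. Of the UMIs of the 4 ligand genes, *Vegfc* held 19.1% in control and 49.1% in knockout LSECs, where it passed *Vegfb* (64.0% and 37.1%).

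**Figure D1:**
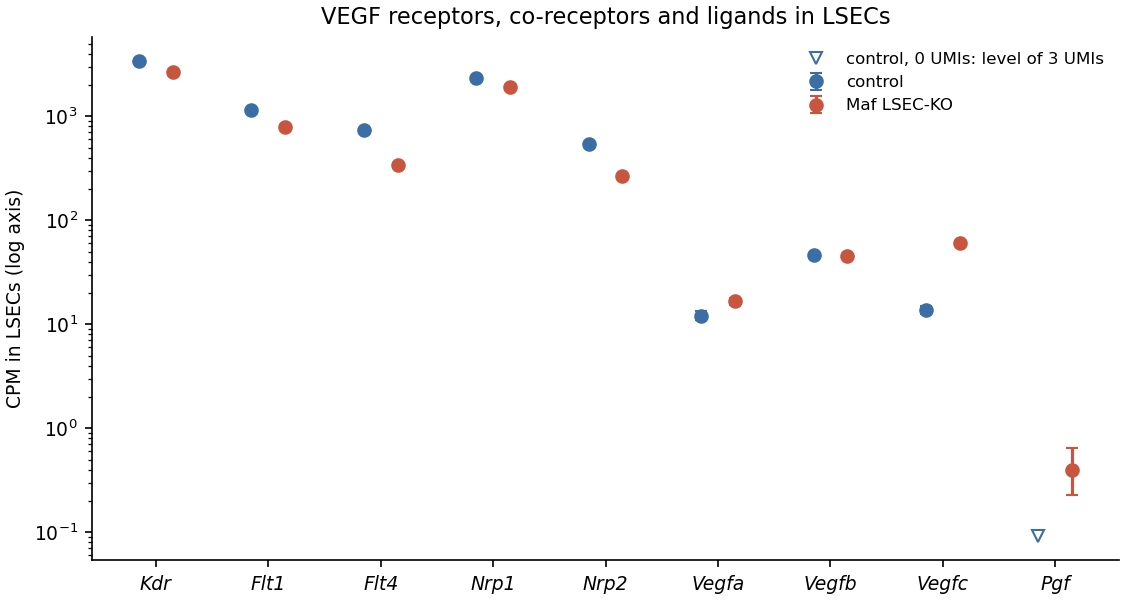
Levels of the 9 genes in LSECs (CPM, log axis) in control (blue) and Maf LSEC-KO (red); bars are exact 95% Poisson intervals, most of them smaller than the symbols, and the open triangle marks the level of 3 UMIs for *Pgf*, which had 0 in control. *Vegfc* stands higher in Maf LSEC-KO (60.4 against 13.7 CPM), and all 5 receptor genes stand lower.

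Against the whole transcriptome, 6 of the 9 genes reached 50 CPM in LSECs of either library (the 5 receptors and *Vegfc*). *Vegfc* reached that level through the knockout alone, where it was high. Of these, 1 was at least 2-fold higher and 2 were at least 2-fold lower, while 8.16% of the 4511 genes of that level were at least 2-fold higher and 5.54% at least 2-fold lower. The median log2 ratio of these 4511 genes was 0.11. *Flt4* and *Nrp2* had lower ratios than all but 4.41% and 5.19% of them, and *Vegfc* had a higher ratio than 98.4%.

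*Flt4* had a UMI in 90.1% of control and 85.1% of knockout LSECs. Thinning every LSEC to 2700 UMIs, for which 406 control and 187 knockout cells were too shallow, gave 76.8% and 48.7%. *Nrp2* was found in 86.2% and 80.6% of LSECs, and in 67.9% and 41.6% after thinning. For *Kdr* the thinned shares were 98.7% and 97.1%. B cell-like cells, which should lack these receptors, gave thinned shares that were also higher in control, at 32.6% and 10.3% for *Flt4*, 28.3% and 2.56% for *Nrp2* and 45.7% and 25.6% for *Kdr* (median depth 7540 and 5977 UMIs before thinning). In macrophage-like cells they were 29.0% and 9.59% for *Flt4*, 41 of 186 and 18 of 292 thinned cells for *Nrp2* and 43.0% and 25.7% for *Kdr* (median depth 5083 and 4565 UMIs). Neutrophil-like cells had higher thinned shares in the knockout for *Flt4* (5.56% and 11.1%) and *Nrp2* (2.78% and 3.70%). T or NK cell-like cells did so for *Kdr* (26.1% and 34.5%). The remaining shares of these genes in those types were higher in control. The LSEC shares lay above these in each library. In control B cell-like cells the 982 *Kdr* UMIs lay in 23 of 47 cells, and *Pecam1* was found in 66.7% of the barcodes of their cluster. Whether such UMIs came from free RNA or from endothelial cells in the same barcodes was not tested. Their part in the difference of LSECs between libraries was not tested either. *Vegfc* had a UMI in 7.09% of control and 36.4% of knockout LSECs (3.03% and 11.4% thinned), and 2.17% and 15.7% held at least 2 of its UMIs. In cells that should lack an endothelial ligand, the T or NK cell-like cells, 3.45% in control and 1.61% in the knockout had a *Vegfc* UMI (median depth 6892 and 5859.5 UMIs). In B cell-like cells it was 2.13% and 7.69% (median depth 7540 and 5977 UMIs). Their *Vegfc* in the knockout, 28.4 CPM (10.4 to 61.9, from 6 UMIs), had an interval that included the level of knockout LSECs. In knockout macrophage-like cells *Vegfc* was at 6.02 CPM (3.29 to 10.1), and in T or NK cell-like cells at 11.6 CPM (3.17 to 29.8). Both intervals lay below the level of knockout LSECs, as did those of neutrophil-like and monocyte or dendritic-like cells. *Vegfb* had a UMI in 26.9% of control and 35.1% of knockout LSECs, but in 9.90% and 8.24% after thinning. For *Vegfa*, 7.97% of control LSECs had a UMI, beside 6.38% of control B cell-like cells (median depth 7540 UMIs). At 9.52 CPM (2.59 to 24.4) the interval of *Vegfa* in those B cell-like cells included the LSEC level, while in control macrophage-like cells, at 3.32 CPM (1.08 to 7.76), it did not.

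Within the knockout library, LSECs that kept *Maf* UMIs offered a comparison inside 1 preparation. *Maf* had 0 UMIs in 2555 LSECs, 1 UMI in 346, and at least 2 in another 346, of which 212 had at least 5. *Flt4* was at 323 CPM with 0 *Maf* UMIs, 510 CPM with at least 2 and 694 CPM with at least 5, beside 744 CPM in control LSECs. *Nrp2* was at 253, 368 and 488 CPM in the same classes, beside 545 CPM in control. *Kdr* was at 2614, 2876 and 3108 CPM, and *Flt1* at 781, 858 and 992 CPM. The level of these 4 receptors was closer to control in cells with at least 2 *Maf* UMIs, and closer again with at least 5. Cells with 1 *Maf* UMI did not lie between, with *Flt4* at 322 CPM, *Nrp2* at 253 CPM and *Flt1* at 755 CPM, the last below its level with 0, while *Kdr* was at 2681 CPM. *Nrp1* did not share the pattern, with 1930, 1874 and 1933 CPM against 2344 CPM in control. *Vegfc* ran the other way, at 63.0, 49.1 and 37.2 CPM, and stayed above the control level of 13.7 CPM in each class. *Vegfa* was at 16.3, 18.4 and 16.1 CPM, and the interval of its ratio between the classes included 0. From 0 to at least 2 *Maf* UMIs, 0 of the 7 members of at least 50 CPM in either class (*Vegfb* among them) differed 2-fold, where 0.316% of 4432 genes were 2-fold higher in the cells without *Maf* and 2.01% were 2-fold lower. The median depth was 13618 UMIs with 0 *Maf* UMIs, 18009.5 with 1, 11540.5 with at least 2 and 10151 with at least 5, and its part in these differences was not tested. Control LSECs with 0 (23 cells), 1 (79) and at least 2 *Maf* UMIs (4002) also rose in *Flt4*, at 220, 423 and 747 CPM. In these control classes *Nrp2* was at 181, 321 and 547 CPM and *Kdr* at 1279, 2051 and 3425 CPM. *Vegfc* was at 25.8, 60.5 and 13.4 CPM there. The median depth of the control classes was 2668, 2256 and 8572 UMIs.

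**Figure D2:**
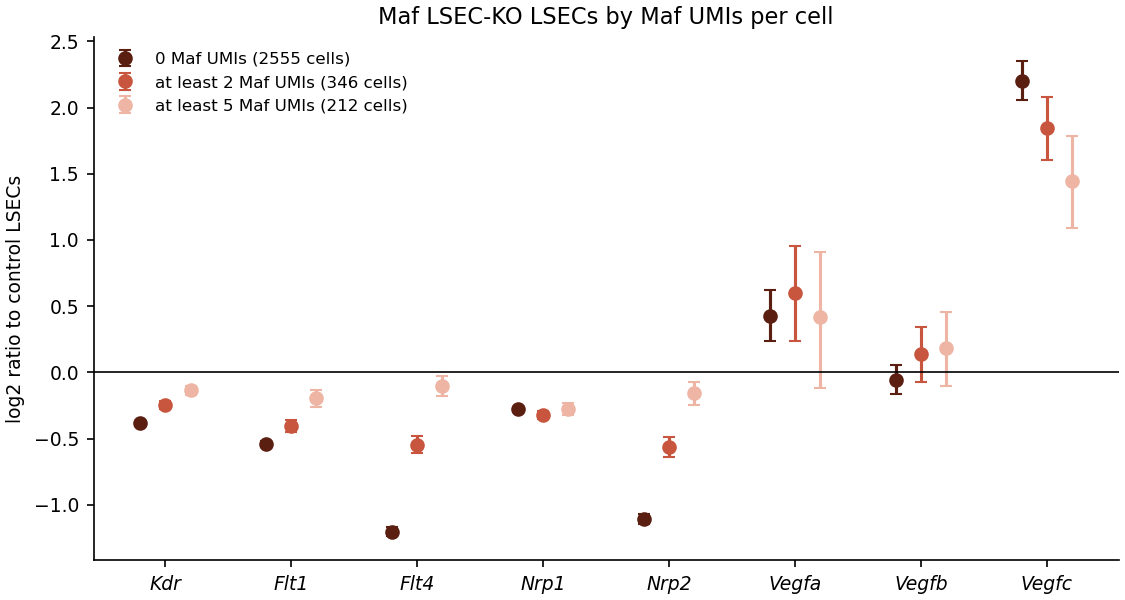
Log2 ratio to control LSECs of 8 genes in knockout LSECs with 0, at least 2 and at least 5 *Maf* UMIs; bars are exact 95% counting intervals, and cells with at least 5 are part of those with at least 2. *Flt4* moves from -1.21 to -0.10 and *Nrp2* from -1.11 to -0.16, while *Nrp1* stays near -0.28.

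Clusters of the merged LSECs, built without the VEGF genes, gave a similar view. Cluster 1 (1592 control and 52 Maf LSEC-KO cells) and cluster 4 (936 and 49) had *Maf* or pericentral genes such as *Wnt9b* and *Cdh13* among their leading genes. In cluster 1, *Flt4* was at 807 CPM in control and 783 CPM in Maf LSEC-KO cells, and *Nrp2* at 614 and 563 CPM. In cluster 4, *Flt4* was at 781 and 737 CPM. *Maf* in their knockout cells was at 2737 and 2279 CPM, so these were mostly cells that still held *Maf* RNA. In both of these clusters the intervals of the log2 ratios of *Flt4* and *Nrp2* included 0. Cluster 5 (870 and 38 cells), with 4 erythroid markers, 3 portal vein endothelial markers (*Ednrb*, *Jag1* and *Sdc1*) and 2 periportal markers (*Msr1* and *Jag1*) among its leading genes and *Vegfc* at 44.2 CPM in its control cells, and cluster 6 (620 and 56 cells, median depth 3389 UMIs), with 8 hepatocyte and 5 erythroid markers, also kept *Maf* in their knockout cells, at 2485 and 2172 CPM. There the log2 ratio of *Flt4* was 0.39 (0.15 to 0.63) in cluster 5 and -0.49 (-0.80 to -0.20) in cluster 6, and that of *Nrp2* 0.27 (0.01 to 0.52) and -0.13 (-0.49 to 0.22). Most knockout LSECs lay elsewhere. Cluster 2 (11 and 1357 cells, led by *Ly6c1*) held *Flt4* at 302 CPM and *Vegfc* at 58.1 CPM in its Maf LSEC-KO cells. Cluster 3 (1 and 1057 cells, with *Kcne3* and *Ankrd37* among its leading genes) held *Flt4* at 389 CPM, *Vegfc* at 80.1 CPM and *Vegfa* at 26.0 CPM. *Vegfa* in cluster 3 was 2.88-fold the 9.02 CPM of cluster 2 in the same library. Cluster 7 (61 and 543 cells, led by cycling genes such as *Mki67*) held *Flt4* at 524 CPM in control and 308 CPM in Maf LSEC-KO cells and *Vegfc* at 10.5 and 41.6 CPM. *Flt4*, *Nrp2* and *Vegfc* thus kept the direction of all LSECs among cycling cells. In knockout LSECs with UMIs of at least 2 cycling genes, *Vegfb* was 1.51-fold higher than in the others (57.1 against 37.7 CPM) and *Vegfc* 1.52-fold lower (46.1 against 70.2 CPM). In control the same ratios had intervals that included 0 on the log2 scale, with *Vegfb* at 55.0 against 45.3 CPM and *Vegfc* at 8.65 against 13.9 CPM. *Pgf* was almost confined to cluster 8 (13 and 95 cells, led by *Dcn*, *Ccl21a* and collagen genes), which held 13 of the 16 *Pgf* UMIs of knockout LSECs. That cluster carried 12 of the 15 stellate or mesenchymal markers and 3 lymphatic endothelial markers (*Mmrn1*, *Ccl21a* and *Reln*, the last of which is in both lists) among its leading genes, and the part of such cells in its values was not tested. There *Flt4* (173 and 304 CPM) and *Nrp2* (144 and 386 CPM) were higher in the knockout, opposite to LSECs as a whole, with 13 control cells behind the comparison.

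Along the sinusoid, LSECs were cut into 3 ranges by the share of pericentral UMIs among the UMIs of periportal and pericentral landmark genes, with cuts set in each library. In control, *Vegfc* was at 35.9 CPM in the periportal, 6.16 CPM in the middle and 2.54 CPM in the pericentral range, a 14.1-fold difference between the ends. *Vegfa* had the opposite slope, with 5.90, 12.5 and 17.3 CPM. The levels of these ligands were thus highest at opposite ends. *Vegfb* was level at 45.6, 46.8 and 43.5 CPM. *Kdr* was at 3128, 3635 and 3560 CPM and *Flt4* at 702, 800 and 748 CPM. Between the periportal and pericentral ranges, 0 of the 5 receptors differed 2-fold, where 0.981% of 4078 genes of at least 50 CPM were 2-fold higher and 1.32% were 2-fold lower in the periportal range; *Vegfc* and *Vegfa* lie below that level.

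In the knockout library *Vegfc* and *Vegfa* had their highest levels at the same ends as in control, and the slope of *Vegfc* was less steep (3.66-fold between the ends). *Vegfc* was at 91.9 CPM in the periportal, 76.7 CPM in the middle and 25.1 CPM in the pericentral range. Relative to control the log2 ratio of *Vegfc* was 1.36 (1.18 to 1.54), 3.64 (3.29 to 4.01) and 3.30 (2.74 to 3.92), so the library difference was widest away from the portal end. *Vegfa* was at 12.1, 16.5 and 20.6 CPM. *Kdr* reversed its slope, with 2934, 2771 and 2389 CPM, and its log2 ratio to control went from -0.09 in the periportal to -0.58 in the pericentral range. *Flt1* did likewise (1053, 1123 and 1247 CPM in control, 879, 830 and 700.1 CPM in the knockout), with log2 ratios of -0.26, -0.44 and -0.83. *Flt4* (340, 350 and 347 CPM) and *Nrp2* (252, 259 and 287 CPM) were near a 2-fold reduction in every range. The cuts fell at 14.3% and 52.6% pericentral UMIs in control but at 0% and 12.2% in Maf LSEC-KO, where 1312 LSECs lay within 5 points of the lower cut, so a range does not stand for the same score in both libraries.

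**Figure D3:**
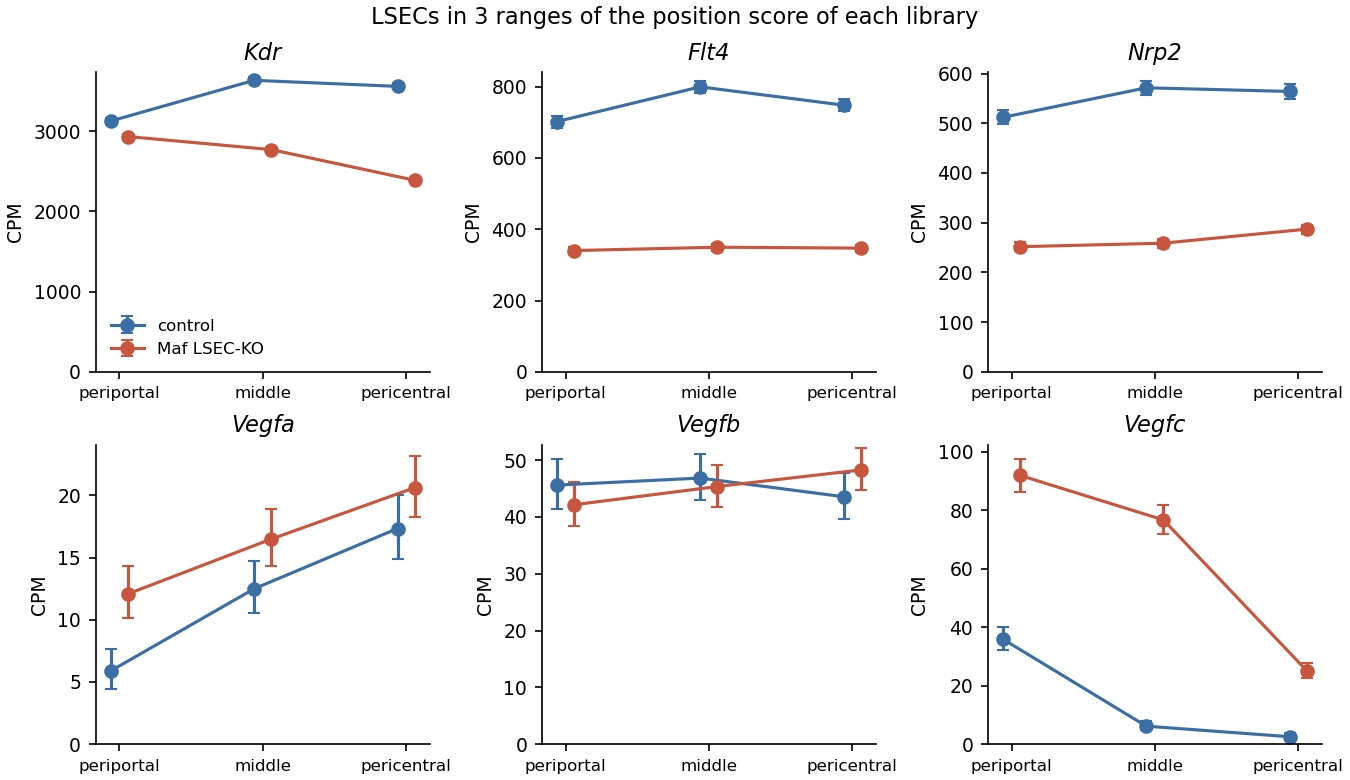
Levels (CPM) of *Kdr*, *Flt4*, *Nrp2*, *Vegfa*, *Vegfb* and *Vegfc* in LSECs of the periportal, middle and pericentral range of each library, with exact 95% Poisson intervals (control blue, Maf LSEC-KO red). *Vegfc* is highest at the periportal end (35.9 and 91.9 CPM) and *Vegfa* at the pericentral end (17.3 and 20.6 CPM).

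Outside LSECs, the cells with a *Vwf* UMI (161 control and 1182 Maf LSEC-KO) held *Vegfc* at 177 and 181 CPM, above the LSECs of either library. Their clusters differed from each other, and the make-up differed between the libraries. In control, 297 of the 305 *Vegfc* UMIs lay in cluster 4, while cluster 6 (69 and 10 cells) was at 2.66 CPM from 2 UMIs. In the knockout, clusters 1 to 3, nearly all Maf LSEC-KO, were at 221, 154 and 99.1 CPM. The values of all cells with a *Vwf* UMI therefore do not compare like cells. Cluster 4 (67 and 104 cells) had the arterial genes *Gja5*, *Sema3g* and *Fbln5* and the portal vein markers *Jag1* and *Sdc1* among its leading genes. It also had *Acta2*, *Tagln* and *Dcn* among them and was left unnamed. It held the most *Vegfc* of the endothelial clusters, with 409 CPM in control (29.9-fold the LSEC level) and 558 CPM in Maf LSEC-KO (9.25-fold). Its *Kdr* was at 921 and 1218 CPM, below that of LSECs. Cluster 5 (20 and 128 cells) carried *Rspo3*, *Wnt9b*, *Wnt2*, *Cdh13* and *Selp* and was central vein endothelial-like. There *Vegfc* was at 16.3 CPM (3 UMIs) and 8.65 CPM, *Kdr* at 575 and 831 CPM and *Flt4* at 141 and 106 CPM. *Flt1* in this cluster was at 1535 and 1109 CPM, above LSECs of the same library. In cluster 5 of both libraries, and in cluster 4 of the control (960 against 669 UMIs), *Flt1* exceeded *Kdr* in UMIs, while in LSECs *Kdr* exceeded *Flt1*. Cluster 1 was nearly all Maf LSEC-KO (4 and 483 cells) and was led by the platelet genes *Ppbp* and *Pf4*. Its *Vegfa* was at 53.2 CPM in Maf LSEC-KO, 3.22-fold the LSEC level, with *Vegfc* at 221 CPM and *Flt1* at 1319 CPM. The part of platelet RNA in these values was not tested.

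Among other cell types, *Vegfa* had its highest levels. It was at 216 CPM (178 to 259) in 37 Maf LSEC-KO cholangiocyte-like cells, 91.9% of which had a UMI, and at 162 CPM (106 to 237) in 40 control neutrophil-like cells. Neutrophil-like cells of the knockout library were at 36.8 CPM (20.1 to 61.7). Macrophage-like cells were at 3.32 and 4.73 CPM, below LSECs of the same library. The control cholangiocyte-like cluster (137 cells) had UMIs of all 14 endothelial genes in most cells and *Kdr* at 2879 CPM, against 28.6 CPM in its Maf LSEC-KO counterpart, so its 20.7 CPM of *Vegfa* were not compared.

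Receptor UMIs were found in every immune type, for *Kdr* in 48.9% of control B cell-like cells (982 UMIs in 23 of 47 cells). The receptors were therefore set against *Kdr* in each type. The intervals treat the UMIs of a cell as independent, so they are too narrow where few cells hold the UMIs. Per 100 *Kdr* UMIs, control B cell-like cells had 68.0 (61.6 to 75.1) of *Nrp1* and 33.9 of *Flt1*, beside 68.7 and 33.3 in control LSECs. Their *Flt4* was at 18.1 (15.4 to 21.3), below the 21.8 of LSECs, and the interval of their *Nrp2* (11.1 to 16.1) included the LSEC ratio. Control T or NK cell-like cells (29 cells) were above LSECs in *Flt1*, at 52.6 (36.6 to 74.9), and in *Flt4*, with an interval of 26.7 to 58.8. Their 50 *Flt1* UMIs came from 3 cells and their 38 *Flt4* UMIs from 8 cells. Macrophage-like cells of the knockout library had 115 (104 to 127) of *Nrp1* per 100 of *Kdr*, above the 72.7 of LSECs. The other receptors were above their LSEC ratios too, with *Nrp2* at 17.0 beside 10.0, *Flt1* at 38.6 (33.5 to 44.4) beside 29.7 and *Flt4* at 18.3 (lower end 15.1) beside 12.9. In control macrophage-like cells *Nrp1* was at 73.1 (67.4 to 79.2), an interval that includes the LSEC ratio, as did those of *Flt1* and *Nrp2*. Their *Flt4* was at 25.5 (22.7 to 28.6), above the 21.8 of control LSECs. Monocyte or dendritic-like cells, found in Maf LSEC-KO only (70 cells), had 114 (88.0 to 147) of *Nrp1*, 71.2 of *Flt1* and 31.4 (21.1 to 45.7) of *Nrp2*. Knockout neutrophil-like cells were above LSECs in *Flt4*, at 44.4 (23.0 to 82.2), and in *Nrp2*, at 33.3 (15.8 to 65.6). Knockout B cell-like cells were above LSECs in *Flt4*, at 21.9 (14.5 to 32.0). The other receptors in these types, and all those of knockout T or NK cell-like cells, had intervals that included the LSEC ratios.

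**Figure D4:**
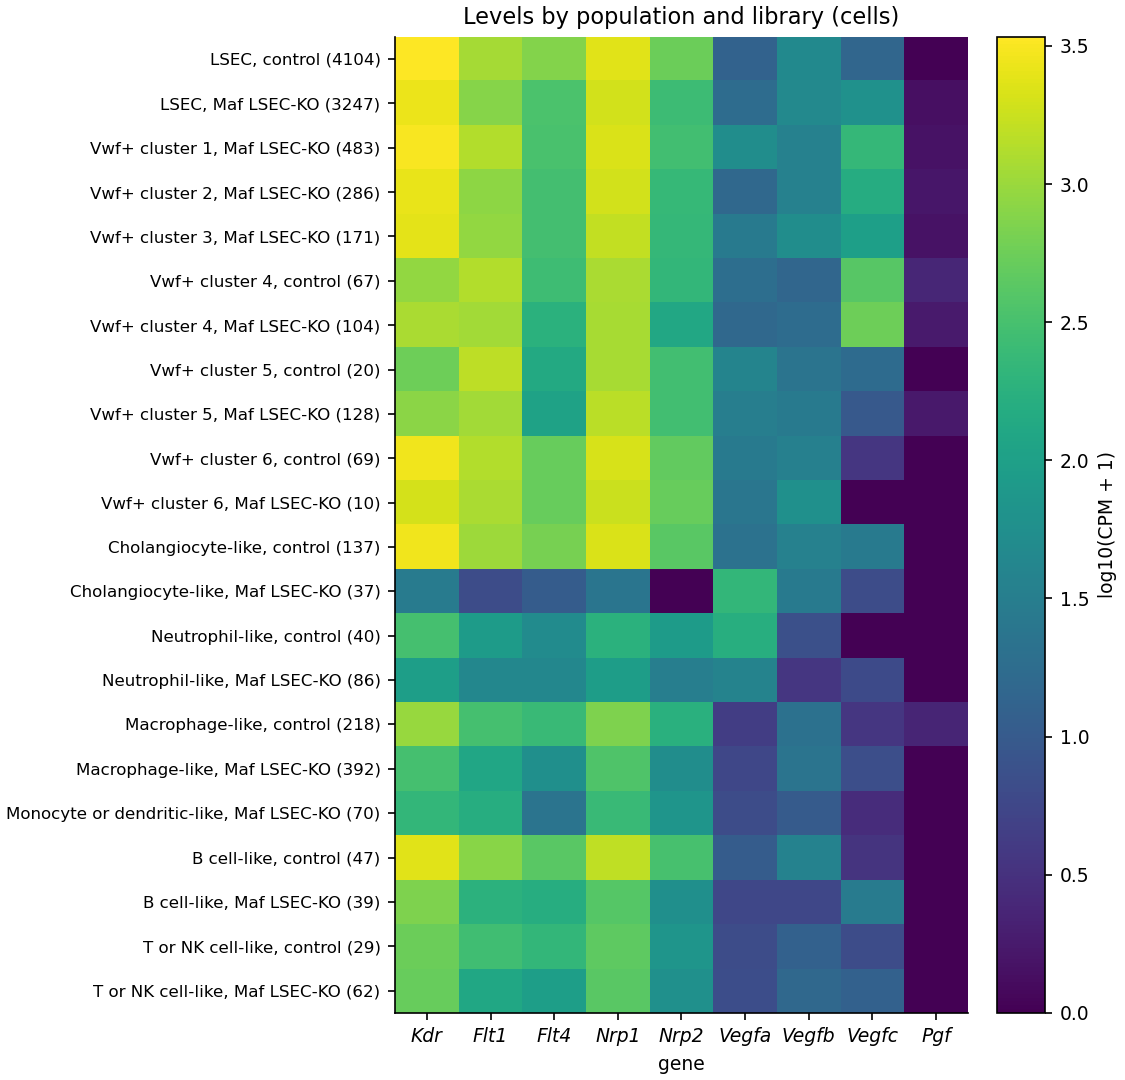
Level of each gene as log10(CPM + 1) in every population with at least 10 cells, by library, with the number of cells in brackets. *Vegfc* is brightest in Vwf+ cluster 4 (409 and 558 CPM), *Vegfa* in the Maf LSEC-KO cholangiocyte-like cells (216 CPM), and the receptors in endothelial rows and in the control cholangiocyte-like and B cell-like rows.

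The genes that varied most like each member were sought over 24 populations and 10928 genes, as Pearson's correlation of log2 levels, a description in which populations share a library and depth. *Kdr* was nearest to *Dlc1* (0.98), *Flt4* to *Plpp3* (0.97), *Nrp2* to *Plekhg1* (0.96), *Flt1* to *Cyyr1* and *Nrp1* to *Emilin1* (0.98 each). *Vegfc* was nearest to *Mal* (0.92), *Mecom* and *Adgrg6* (0.91 each). No likeness is given for *Pgf*, because its pattern over these populations was set by cluster 8 of the knockout library (13 UMIs). *Vegfa* had no gene above 0.77 (*Cebpd*). Only populations of at least 50 cells entered this comparison. The knockout cholangiocyte-like cells (37) and control neutrophil-like cells (40), which had the highest *Vegfa*, were therefore not part of it.

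The wider pathway was read from lists of genes of at least 10 CPM in LSECs of either library, where 10.5% of 9316 genes were 2-fold higher in Maf LSEC-KO, 4.51% were 2-fold lower and the median log2 ratio was 0.14. Of the factors that process Vegfc and its relative Vegfd (*Vegfd*, *Ccbe1*, *Adamts3*), 0 of 3 reached that level. Among 6 neuropilin partners 0 were higher and 1 was lower, the semaphorin *Sema3d* (24.5 and 4.29 CPM), with a median of -0.06. The plexins *Plxnd1* (790 and 764 CPM) and *Plxna2* (231 and 223 CPM), which signal with neuropilins, the ligand *Sema3f* (197 and 187 CPM) and *Plxna4* (48.0 and 41.0 CPM) were within 2-fold. Among 13 proteins at the receptor complex 1 was higher and 2 were lower, with a median of 0.10 that turned negative under 3 other scalings. *Ptprb*, the phosphatase VE-PTP that restrains Vegfr2 and Tie2, was at 5299 CPM in control and 2072 CPM in Maf LSEC-KO. *Dab2*, an endocytic adaptor that takes part in the uptake of Vegfr2 and Vegfr3, was at 1056 and 249 CPM. The integrin gene *Itgb3* was at 22.2 and 48.9 CPM. Within 2-fold were *Cdh5* (986 and 1060.5 CPM), whose product binds Vegfr2 at junctions, *Ctnnb1* (342 and 514 CPM), *Robo4* (402 and 384 CPM) and *Rab11a* (195 and 179 CPM). With TMM or the UMIs of all genes as the scale 0 were higher and 3 lower.

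Of 27 signal relay genes 1 was higher, the stress protein gene *Hspb1* (81.7 and 545 CPM), and 2 were lower, the kinase subunit gene *Pik3r1* (147 and 60.6 CPM) and the kinase gene *Prkcb* (29.2 and 1.02 CPM). Their median was -0.07. *Cdc42* (770 and 687 CPM), *Fyn* (635 and 463 CPM), *Rac1* (495 and 463 CPM) and *Ppp3ca* (311 and 191 CPM) were within 2-fold. Of 10 genes that endothelial cells are known to raise after VEGF, 4 were higher and 0 lower, with a median of 0.75. These were the tip cell genes *Esm1* (113 CPM in the knockout, log2 ratio 3.02) and *Kcne3* (3.89 and 45.9 CPM), the growth factor *Pdgfb* (14.1 and 137 CPM) and *Nr4a1* (3.43 and 17.5 CPM). *Adamts1* (161 and 289 CPM), *Hlx* (149 and 232 CPM), *Dll4* (127 and 175 CPM) and *Rcan1* (67.3 and 44.8 CPM) were within 2-fold, the last being lower in the knockout. Of 13 oxygen sensing and hypoxia genes 6 were higher and 0 lower, with a median of 0.59. They were the glycolysis genes *Ldha* (212 and 464 CPM) and *Pgk1* (100.3 and 212 CPM), *Adm* (35.4 and 113 CPM), *Ankrd37* (1.64 and 40.1 CPM), the glucose transporter *Slc2a1* (2.43 and 21.3 CPM) and *Egln3* (1.43 and 17.1 CPM). The count was 4 with TMM or the UMIs of all genes as the scale and 5 under 4 other alternatives, while that of the genes raised after VEGF was 4 under each of the 15. Within 2-fold were *Epas1*, which encodes Hif2a (602 and 379.9 CPM), *Hif1a* (110.1 and 132 CPM), *Egln1* (95.8 and 95.6 CPM) and *Arnt* (70.4 and 52.0 CPM). Of the genes counted as higher, *Kcne3*, *Nr4a1*, *Ankrd37*, *Slc2a1* and *Egln3* reached 10 CPM in the knockout only, so they entered the lists through the library where they were high. The lists were written with earlier results of these data known, and the paper reports *Esm1* and *Pdgfb* as upregulated in this knockout. The counts are therefore a description, and no test was made of either list.

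**Figure D5:**
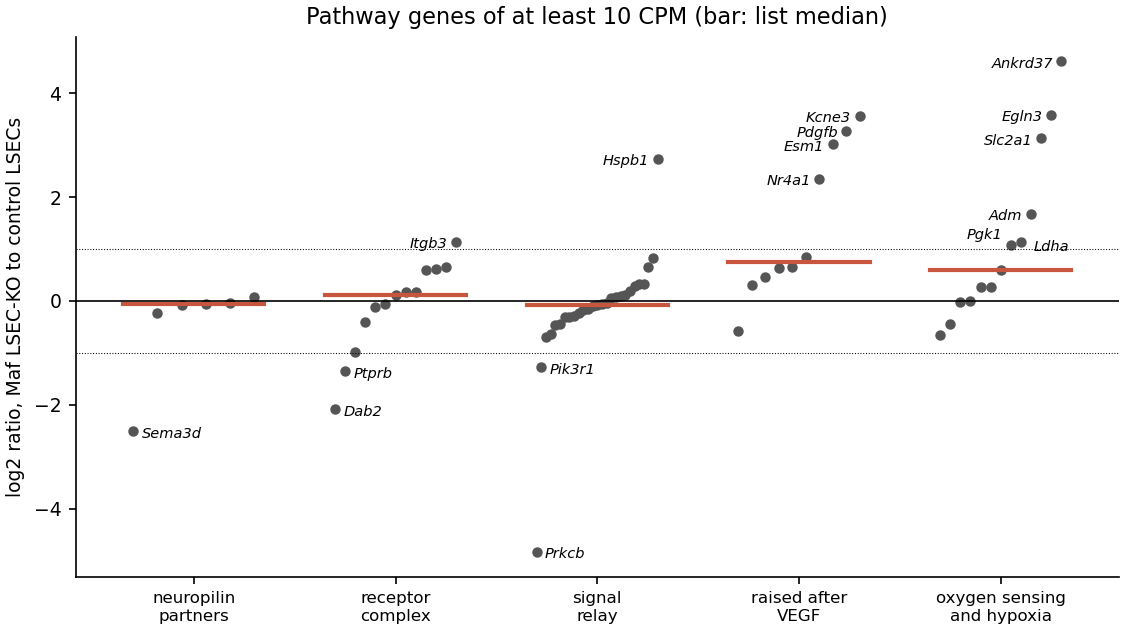
Log2 ratio (knockout LSECs over control) for each pathway gene of at least 10 CPM, by list, sorted within the list, with the list median as a red bar and dotted lines at 2-fold. Genes past 2-fold are named, 4 of 10 of those raised after VEGF and 6 of 13 of the hypoxia genes all lying above the upper line. The lists were written with earlier results of these data known.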

How the data were processed

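The counts deposited by the authors are whole UMIs per gene and barcode, made with Cell Ranger 6.0.2 and mm10 per the labels, which also name Seurat 5.0.1. The subtraction of empty droplets described in the methods is not part of them and was not repeated. The libraries held 5664 (control) and 7091 (Maf LSEC-KO) barcodes. Barcodes of at least 1500 UMIs and 750 genes were kept (4961 and 5423) and clustered per library in Seurat 5.3.0 (R 4.3.3, resolution 0.3), with the VEGF genes left out of the variable genes. The automatic Scrublet limit (scanpy 1.11.5) marked 0 doublets, so the 225 and 308 highest scores, 4.53% and 5.67%, were removed. LSECs of both libraries were merged with sctransform 0.4.2. CPM were computed from summed UMIs, with exact Poisson and Clopper-Pearson 95% intervals (scipy 1.17.1). No test was made, since each condition is 1 library, and the interval code was tested on simulated data. Clusters were called endothelial-like when *Pecam1* and 7 or more of 14 endothelial genes were each detected in 50% or more of the cells, and other clusters were named from at least 3 markers among their 50 leading genes. Named pathway genes were the highest-expressed past 2-fold (up to 6) and within it (up to 4) of each list. Gene positions are from the mouse GENCODE annotation of mm10, and RefSeq gave promoter windows for all 9 genes. The members, lists and comparisons were chosen with earlier results of these data known. Alternatives were other scalings (TMM from edgeR 4.0.16, median of ratios, UMIs of all genes), thinning, and filters on cells.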

Additional observations from a re-analysis of the deposited data

Results flagged for a closer look

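*Kdr* and *Nrp1* were lower in Maf LSEC-KO than in control among LSECs as a whole, but the opposite sign, with counting intervals that do not include 0, was found in these populations of at least 50 cells in each library. The difference between populations was not tested. LSECs with 1 *Maf* UMI (79 and 346 cells) were among them, with *Kdr* at 2051 CPM in control and 2681 CPM in the knockout. *Nrp1* was at 1518 and 1962 CPM there, and for both genes the intervals of the libraries did not overlap. The median depth of that class was 2256 UMIs in control and 18009.5 in the knockout. In cells with a *Vwf* UMI the log2 ratio was 0.48 for *Kdr* and 0.19 for *Nrp1*. These cells differ in make-up, since clusters 1 to 3 of them were nearly all Maf LSEC-KO. Within Vwf+ cluster 4, which both libraries share (67 and 104 cells), the log2 ratio of *Kdr* was 0.40. In merged LSEC cluster 7, led by cycling genes (61 and 543 cells), it was 0.0938 for *Kdr* and 0.10 for *Nrp1*. Cycling cells taken as LSECs with UMIs of at least 2 cycling genes (116 and 918) did not have the opposite sign. There *Kdr* was at 2822 CPM in control and 2385 CPM in the knockout, and *Nrp1* at 1774 and 1695 CPM. Populations with fewer than 50 cells in a library also had opposite signs, among them merged cluster 5 (*Kdr* 0.51, with 38 knockout cells), cluster 2 (*Kdr* 0.51 and *Nrp1* 1.06, with 11 control cells), cluster 8 (*Kdr* 0.78 and *Nrp1* 0.91, with 13 control cells) and Vwf+ cluster 5 (*Kdr* 0.53 and *Nrp1* 0.32, with 20 control cells).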

How the results depend on the processing

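No paired analysis was possible because each condition is a single library. Over 15 alternatives, 2 of them (leaving out merged clusters) chosen after seeing the data, *Kdr*, *Flt1*, *Flt4*, *Nrp1* and *Nrp2* were lower in all 15, and *Vegfa* and *Vegfc* higher in all 15. The log2 ratio ranged from -1.31 to -1.03 for *Flt4*, from -1.23 to -0.90 for *Nrp2*, from -0.55 to -0.27 for *Kdr*, from -0.72 to -0.39 for *Flt1*, from -0.47 to -0.18 for *Nrp1*, from 0.24 to 0.74 for *Vegfa* and from 1.95 to 2.64 for *Vegfc*. *Vegfb* changed sign among them (-0.26 to 0.01). *Flt4* and *Vegfc* stayed past 2-fold in 15 of 15 alternatives and *Nrp2* in 12, so that the count of members past 2-fold lower was 1 with the mean over cells of CPM per cell, with LSECs thinned to 2700 UMIs and without cycling LSECs. All log2 ratios moved by -0.19 with the UMIs of every gene as the total, by -0.15 with TMM and by -0.11 with the median of ratios. The count of hypoxia genes past 2-fold higher went from 6 to 4, 4 and 5 in that order, and in the receptor complex list from 1 higher and 2 lower to 0 and 3, 0 and 3, and 1 and 3. Under these the median of the receptor complex list changed sign (-0.0847, -0.0471 and -0.00085), and the share of all genes at least 2-fold higher was 4.98% with UMIs of all genes and 5.33% with TMM. Depth limits *Pgf* (16 UMIs) and the small control populations.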
